A study of Rattus norvegicus with 6 samples.

Results

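Claudins and occludin are membrane proteins of the tight junction, the seal between neighbouring epithelial cells of the nephron. The 9 claudin genes Cldn1, Cldn2, Cldn3, Cldn4, Cldn7, Cldn8, Cldn10, Cldn16 and Cldn19, together with the occludin gene Ocln, were followed here in kidney RNA of congenic and Dahl S rats. All probe sets that the array's annotation assigns to 1 of these 10 symbols were taken, which gave 13 of the 31099 probe sets on the array: 3 for Cldn1, 2 for Ocln and 1 for each of the other genes. The members are 10 of the 14217 genes that the array names by 1 symbol, and the rule reads gene symbols, not signals. The genes lie on chromosomes 2, 5, 10, 11, 12, 15 and X of the rat, and none lies on chromosome 9, the chromosome that differs between the strains.

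Claudins decide what passes between epithelial cells. Some line the junction as barriers, and others form pores that let selected ions or water through, so each nephron segment has the paracellular permeability of the claudins it makes. In the leaky proximal tubule Cldn2 forms a pore for cations and water, in the thick ascending limb Cldn10, Cldn16 and Cldn19 set the passage of sodium, calcium and magnesium, and in the tight collecting duct Cldn3, Cldn4, Cldn7 and Cldn8 serve mainly as barriers or chloride pathways. These roles are known mostly from mice, cell lines and human disease. Loss of CLDN16 or CLDN19 in humans wastes magnesium and calcium into the urine. Occludin is found at the junctions of most tubule segments.

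The congenic rats have a piece of chromosome 9 from the R strain in an otherwise Dahl S genome, and Dahl S rats, which become hypertensive on a salt-rich diet, were their controls. Both groups were males of 1 birth date on a 2% salt diet from weaning at 30 days, and were killed at 53 days. Each group held 6 rats whose kidney RNA was pooled by pairs, giving 3 congenic and 3 S pools with 1 array each. All rats had the salt-rich diet, so its effect on these genes is not part of the comparison. The comparison asks which kidney transcripts differ with that piece of chromosome 9.

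The values were MAS5 signals, a linear brightness per probe set after background correction, already scaled to a common mean on all arrays. A signal depends on the probes as well as on the transcript, so it is compared here between pools and not between genes. Spearman correlations between arrays ran from 0.973 to 0.987. The RNA was labelled as kidney, and the defining genes of the segments were bright in all 6 pools: Umod of the thick ascending limb at 6576 to 7010, Lrp2 of the proximal tubule at 4948 to 5719 and Aqp2 of the collecting duct at 2466 to 3418. Signals of 2 other organs appeared on single arrays, as the summed signal of 10 hepatocyte genes was 11344 in congenic pool 1 (the highest pool for all 10) against 406 to 516 in the other 5 pools, and that of 5 adrenal genes was 5506 in congenic pool 3 (the highest pool for all 5) against 128 to 142 elsewhere. The actin 3' over 5' ratio, which increases as RNA degrades, was 6.15 to 7.17 in congenic and 6.54 to 9.42 in S pools, with the highest value in S pool 1. In bulk kidney RNA, fewer cells of a type and less RNA per cell cannot be told apart.

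No claudin or occludin probe set differed between the strains by limma's test across the array, although Cldn2 was higher in every congenic pool than in any S pool. Of the 13 probe sets, 12 passed the filter on low signals and were tested, and 0 of the 12 had a Benjamini-Hochberg adjusted p under 0.05, where 0% of all 18625 tested probe sets did. The unadjusted p was under 0.05 for 1 of 12, Cldn2, against a background of 6.61% of probe sets. The groups did not overlap for 1 of 12, again Cldn2, where 12.5% of all tested probe sets did not overlap. A positive log2 fold change was seen for 8 of the 12 and for 48.8% of all tested probe sets. The median log2 fold change of the 12 was 0.019, and that of all tested probe sets was -0.0034. Each 95% interval lay between -0.48 and 0.44 on the log2 scale, so that for each of these probe sets a difference over 1.40-fold in either direction lay outside its interval. Fold changes here are congenic over S on the log2(signal + 16) scale, which understates changes of dim probe sets.

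**Figure D1:**
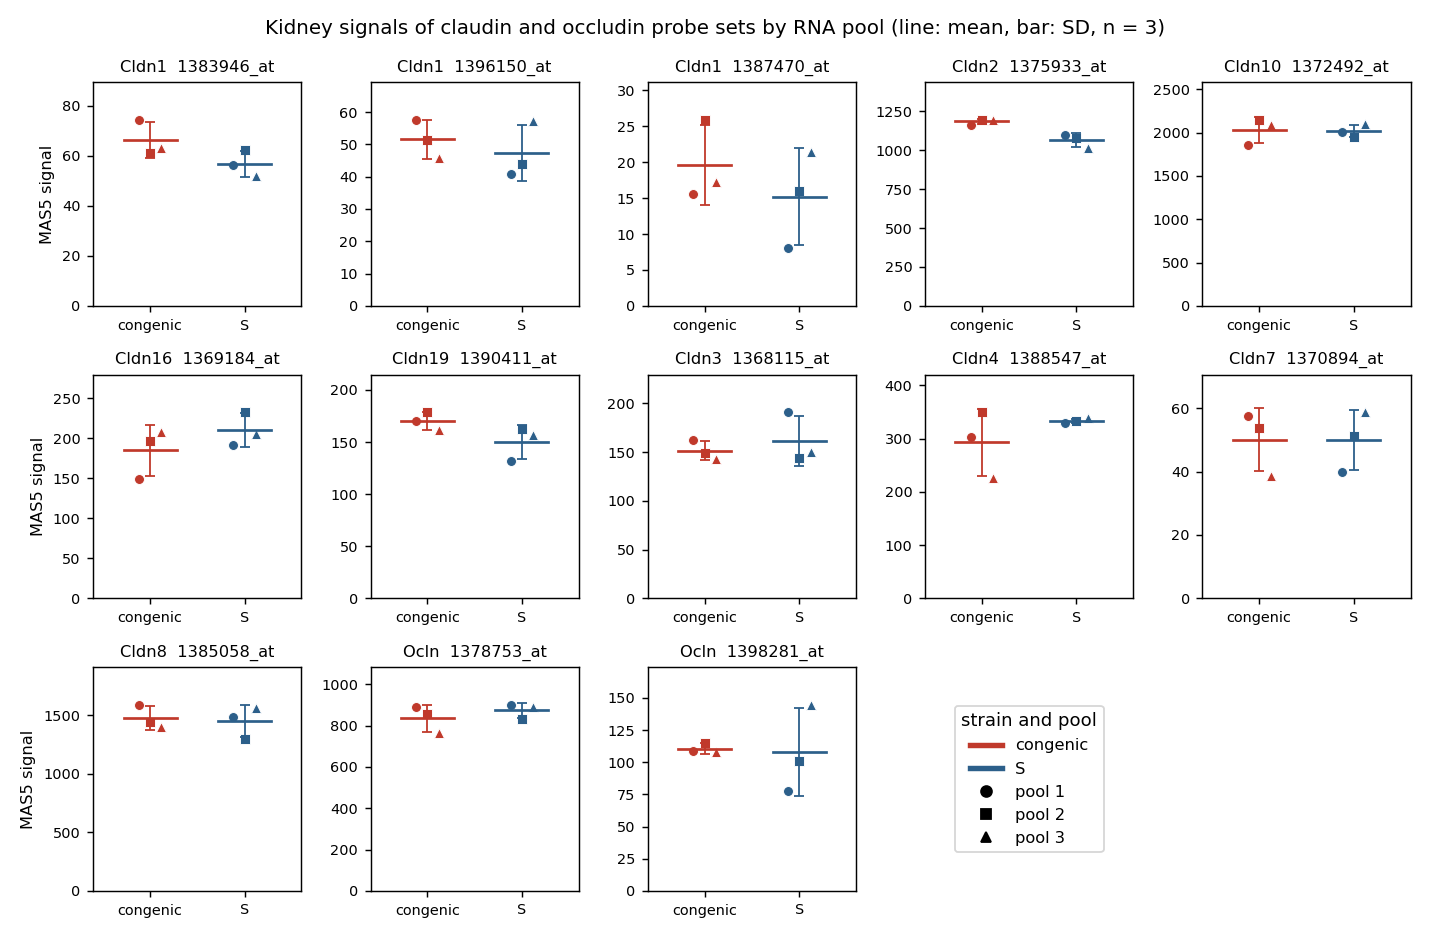
MAS5 signal (linear axis from 0, own scale in each panel) of each of the 13 probe sets in 3 congenic and 3 S pools. Symbols are pools, lines are means and bars are SDs (n = 3 each). The congenic pools of Cldn2 lie at 1163 to 1197, all above the S pools, and Cldn4 in congenic pool 3 lies at 226, below the other 5 pools.

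A known element of claudin and occludin promoters is the E-box CAGGTG, or CACCTG on the other strand, to which the repressors of the Snail family bind in mouse and human cells. RefSeq promoters of the rat assembly GRCr8 were found for 8 of the 10 genes, all but Cldn2 and Cldn4, and were searched over the 250 bases before the start for either spelling, each being the reverse complement of the other. The E-box was in 3 of the 8, Cldn3 with 1, Ocln with 2 and Cldn7 with 4, and 15.9% of the 33469 promoters in the table held at least 1. Promoters with 3 or more made up 0.236% of the table. The windows of Cldn7, on the plus strand at chr10:55188420-55188669, and of Ocln, on the minus strand at chr2:33441199-33441448, are shown because they held the most, with that of Cldn1, on the plus strand at chr11:87926126-87926375, as a window without these letters. Capitals mark the E-boxes, and each sequence reads 5′ to 3′ towards the start.
Cldn7: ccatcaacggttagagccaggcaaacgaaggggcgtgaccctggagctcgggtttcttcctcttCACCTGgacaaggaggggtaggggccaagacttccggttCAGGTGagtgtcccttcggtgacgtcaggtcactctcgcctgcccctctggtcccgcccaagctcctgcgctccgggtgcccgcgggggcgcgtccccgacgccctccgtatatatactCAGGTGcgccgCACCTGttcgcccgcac
Ocln: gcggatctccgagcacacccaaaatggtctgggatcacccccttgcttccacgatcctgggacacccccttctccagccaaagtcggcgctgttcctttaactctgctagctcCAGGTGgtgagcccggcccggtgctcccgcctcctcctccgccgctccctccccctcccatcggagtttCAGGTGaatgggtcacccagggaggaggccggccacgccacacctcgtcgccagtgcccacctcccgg
Cldn1: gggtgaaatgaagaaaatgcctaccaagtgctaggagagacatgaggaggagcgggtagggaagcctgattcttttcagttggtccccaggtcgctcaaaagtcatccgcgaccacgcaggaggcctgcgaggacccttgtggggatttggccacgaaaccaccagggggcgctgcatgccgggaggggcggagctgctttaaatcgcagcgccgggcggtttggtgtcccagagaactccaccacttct
In Cldn7 the E-boxes began between 186 and 17 bases before the start, and in Ocln 137 and 68 bases before it. A match is a description of these letters and not a shown binding site, and the Cldn1 window shows only that the letters are not in it.

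Along the nephron, Cldn1 comes first. In the kidney its product is known from the parietal cells of Bowman's capsule, and it is the main sealing claudin of skin. Its brightest probe set, 1383946_at, measured 74.5, 61.1 and 63.3 in congenic pools 1, 2 and 3, against 56.5, 62.3 and 51.8 in S pools 1, 2 and 3. Congenic pool 1 was the highest of all 6, and the groups overlapped because S pool 2 exceeded congenic pool 2. The log2 fold change was 0.18 (SE 0.115, 95% interval -0.08 to 0.43, limma adjusted p = 0.799). Hepatocytes also make Cldn1, and congenic pool 1 is the pool with the hepatocyte signal, whose part in this value was not tested. Without that pool the log2 fold change was 0.10.

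The second Cldn1 probe set, 1396150_at, measured 57.7, 51.5 and 45.6 in congenic pools and 40.7, 43.9 and 57.1 in S pools. S pool 3 lay close to congenic pool 1, so the groups overlapped widely, and the log2 fold change was 0.10 (95% interval -0.20 to 0.40). With 1 pool left out it ran from 0.027 without S pool 1 to 0.21 without S pool 3, and it was 0.037 without congenic pool 1 and 0.17 without congenic pool 3. The third, 1387470_at, lay below the filter, at 15.6, 25.9 and 17.2 in congenic pools and 8.12, 16.1 and 21.5 in S pools. With no filter its log2 fold change was 0.20 (limma unadjusted p = 0.334). All 3 probe sets thus had a higher congenic mean, and for none did the groups separate.

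Cldn2, the cation and water pore of the proximal tubule and thin descending limb, was the 1 member whose pools separated by strain. Over the whole array, 12.5% of tested probe sets separated in this way. The Cldn2 probe set measured 1163, 1194 and 1197 in congenic pools, against 1101, 1077 and 1016 in S pools. The lowest congenic pool exceeded the highest S pool, and the means were 1185 ± 18.5 in congenic and 1065 ± 43.6 in S pools (SD, n = 3 each). The log2 fold change was 0.15 (SE 0.055, 95% interval 0.03 to 0.27), or 1.11-fold. The unadjusted limma p was 0.0190 and the adjusted p 0.743, rank 463 by p among 18625 probe sets, so the gene did not pass. Leaving out 1 pool at a time gave log2 fold changes of 0.12 to 0.18. Without congenic pool 1, the pool with the hepatocyte signal, it was 0.17.

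None of the thick ascending limb claudins passed the test, and their signs differed. Cldn10, whose isoforms serve as a sodium pore in the limb and as an anion pore in the proximal tubule, measured 1863, 2151 and 2086 in congenic pools and 2003, 1956 and 2097 in S pools. The congenic pools held both the lowest and the highest value, and the log2 fold change was 0.01 (SE 0.063, 95% interval -0.13 to 0.15). This was the family's narrowest interval after that of Cldn2. Which isoform the probe set reads was not analysed here.

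Cldn16 and Cldn19, whose products join in 1 complex for calcium and magnesium reabsorption, leaned opposite ways. Cldn16 measured 149, 197 and 209 in congenic pools and 191, 233 and 206 in S pools, a log2 fold change of -0.18 (SE 0.12, 95% interval -0.45 to 0.09). The groups overlapped, and congenic pool 1 held the lowest value; without it the log2 fold change was -0.042, and without S pool 2, the highest, it was -0.11. Cldn19 measured 171, 179 and 161 in congenic pools and 132, 162 and 157 in S pools, a log2 fold change of 0.17 (SE 0.095, 95% interval -0.04 to 0.38). Here S pool 1 was the lowest, with S pool 2 just above congenic pool 3, and without S pool 1 the log2 fold change was 0.084. The adjusted p by limma was 0.810 for Cldn16 and 0.785 for Cldn19.

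The signal ratio of Cldn16 to Cldn19 within an array was 0.874, 1.10 and 1.29 in congenic pools, against 1.45, 1.43 and 1.31 in S pools. The highest congenic ratio lay just under the lowest S ratio, and the means were 1.09 ± 0.210 in congenic and 1.40 ± 0.075 in S pools (SD, n = 3 each). This pair was singled out after its values were seen, so no test is given. Among single tested probe sets the groups did not overlap for 12.5%, and no such share was worked out for ratios. The size of such a ratio depends on the probes, and only its difference between pools can be read.

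In the distal nephron and collecting duct, too, no claudin passed the test. Cldn8, a barrier to cations that in mice brings Cldn4 to the junction, measured 1591, 1444 and 1396 in congenic pools and 1488, 1296 and 1564 in S pools. The pools interleaved, with a log2 fold change of 0.03 (SE 0.078, 95% interval -0.14 to 0.20). Cldn4, needed for the chloride path of collecting duct cells, measured 303, 349.9 and 226 in congenic pools and 330.0, 333 and 338 in S pools. The S pools agreed closely, and the congenic pools spread on both sides of them, with pool 3 lowest and pool 2 highest of all 6. The log2 fold change of Cldn4 was -0.20 (SE 0.128, 95% interval -0.48 to 0.09, limma adjusted p = 0.796). Without congenic pool 3, the pool with the adrenal signal, it was -0.033, and without congenic pool 2 it was -0.33. Against congenic pool 2 alone the sign turned, to 0.065. The signal ratio of Cldn4 to Cldn8 within an array was 0.191, 0.242 and 0.162 in congenic and 0.222, 0.257 and 0.216 in S pools, with overlap.

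Cldn3, a barrier claudin of the distal tubule that hepatocytes also make, measured 163, 149 and 143 in congenic pools and 191, 144 and 150.5 in S pools. S pool 1 stood above the rest. The log2 fold change was -0.077 (SE 0.109, 95% interval -0.32 to 0.17) and turned to 0.038 without S pool 1, whereas without S pool 2 it was -0.15. Without congenic pool 1, the pool with the hepatocyte signal, it was -0.12. Cldn7, which lies along the lateral membrane as well as at the junction, measured 57.7, 53.9 and 38.7 in congenic pools and 39.8, 51.4 and 58.8 in S pools. Both groups covered the same range, and the log2 fold change was 0.0010 (SE 0.156, 95% interval -0.35 to 0.35). Cldn3 and Cldn4 are neighbours on chromosome 12, with 0 protein-coding genes between them in RefSeq, as are Cldn1 and Cldn16 on chromosome 11. None of these 4 genes passed the test.

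Occludin was measured by 2 probe sets that differ in brightness and in how well the pools agreed. The first, 1378753_at, measured 890.3, 854 and 762 in congenic pools and 902, 832 and 889 in S pools, a log2 fold change of -0.066 (SE 0.070, 95% interval -0.22 to 0.09). The groups overlapped, with congenic pool 3 lowest. Without that pool, the one with the adrenal signal, the log2 fold change was -0.0029, and without congenic pool 1 it was -0.11. The second, 1398281_at, measured 109, 115 and 108 in congenic pools and 77.4, 101 and 145 in S pools. Its congenic pools lay between S pool 2 and S pool 3, so the S pools alone set the spread (SD 3.90 for congenic and 34.2 for S pools, n = 3 each). The log2 fold change was 0.070 (95% interval -0.30 to 0.44) with all pools and -0.11 without S pool 1, the pool with the highest actin ratio, and it was 0.28 without S pool 3. The 2 probe sets had opposite signs, and neither interval excluded 0.

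**Figure D2:**
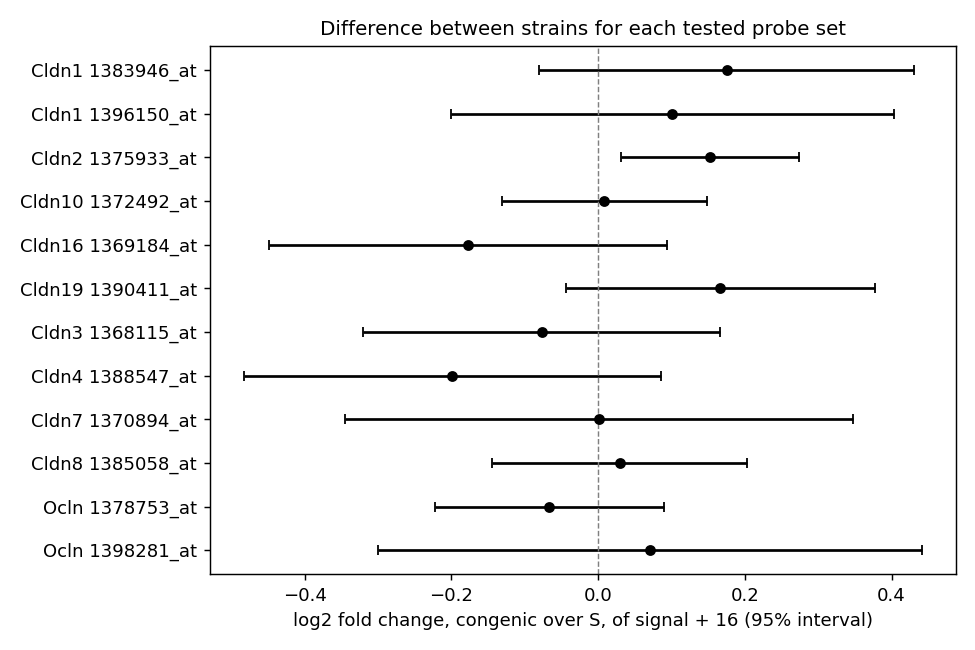
Log2 fold change of signal + 16, congenic over S, with limma's 95% interval (unadjusted), for the 12 tested probe sets in the order of the nephron. The interval of Cldn2, 0.03 to 0.27, does not include 0, and the other 11 do.

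For 8 of the claudins, the mean log2 signal of the marker genes of 1 segment that makes them was then subtracted array by array. This asks whether a claudin moved apart from those markers. Cldn2, Cldn3 and Cldn10 are also made in other segments, and the markers of those segments were not used for them. Of the 8 claudins compared in this way, the groups separated for 2, Cldn2 and Cldn4. Set against the same markers, the groups did not overlap for 7.32% of all 18625 tested probe sets with the proximal tubule markers, for 8.93% with those of the thick ascending limb and for 13.3% with those of principal cells. Relative to 10 proximal tubule genes, Cldn2 was higher in congenic pools by 0.20 on the log2 scale, at -0.466, -0.235 and -0.235 in congenic and -0.536, -0.499 and -0.496 in S pools (exact permutation p = 0.1, 2-sided). Of those 10 markers, 8 had negative log2 fold changes, with a median of -0.047. With 1 pool left out the difference of Cldn2 ran from 0.16 without congenic pool 3 to 0.28 without congenic pool 1.

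Relative to 8 collecting duct principal cell genes, Cldn4 was lower in congenic pools by 0.31 on the log2 scale, at -0.553, -0.601 and -1.03 in congenic and -0.331, -0.431 and -0.482 in S pools (exact permutation p = 0.1, 2-sided). Without congenic pool 3 the difference was -0.16. The water channel genes among these markers, Aqp2, Aqp3 and Aqp4, had log2 fold changes of 0.23, 0.43 and 0.21. Their unadjusted limma p were 0.00767, 0.00361 and 0.0585, and their adjusted p 0.710, 0.710 and 0.772. The groups separated for Aqp2 and Aqp3 and overlapped for Aqp4. Of all 8 principal cell markers, 5 had positive and 3 negative log2 fold changes, from -0.070 for Hsd11b2 to 0.43 for Aqp3, with a median of 0.088. Relative to the same markers, Cldn8, Cldn7 and Cldn3 had differences of -0.084, -0.11 and -0.19, with overlapping groups. Each moved widely with 1 pool left out. Cldn8 ran from -0.19 without congenic pool 1 to -0.00015 without congenic pool 2, and was at -0.013 without S pool 1. Cldn7 ran from -0.25 without congenic pool 1 to 0.0018 without congenic pool 3, and Cldn3 from -0.29 without congenic pool 1 to -0.026 without S pool 1. Cldn7 and Cldn8 are also made upstream, in the distal convoluted and connecting tubule. All 5 tested markers of that segment had negative log2 fold changes (median -0.084), from -0.30 for Trpv5 to -0.0076 for Klk1, and the groups overlapped for each. The summed signal of its 6 measured markers was 2755, 2147 and 1730 in congenic and 1915, 2623 and 2475 in S pools. Of these, Pvalb lay below the filter, at 0.842 to 3.48 in congenic and 1.01 to 1.72 in S pools. In the thick ascending limb the differences relative to 7 markers were -0.0027 for Cldn10, -0.19 for Cldn16 and 0.16 for Cldn19, also with overlap. That of Cldn16 was -0.10 without congenic pool 1 and -0.11 without S pool 2, and without S pool 1 that of Cldn19 was 0.092. Of these 7 markers, 5 had positive and 2 negative log2 fold changes, from -0.21 for Bsnd to 0.26 for Kcnj1, with a median of 0.024. With 3 against 3 arrays, 0.1 is the smallest p this exact test can give, so it cannot reach 0.05.

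**Figure D3:**
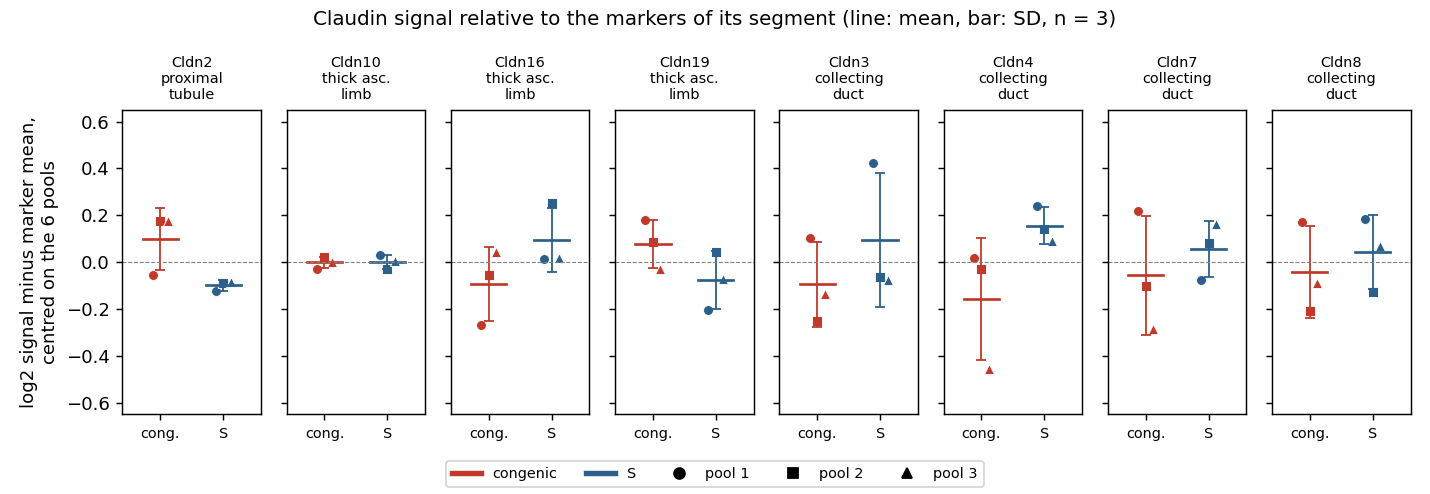
Log2(signal + 16) of each claudin minus the mean over its segment's markers, centred on the mean of the 6 pools (linear axis in log2 units), for 3 congenic and 3 S pools. Lines are means and bars SDs (n = 3 each). The congenic pools of Cldn2 lie above and those of Cldn4 below all S pools.

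Cldn4 and Cldn7 are also made by the urothelium of the renal pelvis. The summed signal of 6 urothelial genes was 444, 495 and 423 in congenic pools and 569.8, 517 and 534 in S pools, without overlap. All 5 tested members had negative log2 fold changes, with a median of -0.29, and the uroplakins Upk1b and Upk1a lay at -0.29 each. The groups did not overlap for 2 of the 5, Upk1b and Krt19, where 12.7% of all tested genes did not. No such share was worked out for sums. Krt5 was at 22.4 to 25.1 in congenic and 23.4 to 38.3 in S pools. Upk2, the gene below the filter, went the other way, with means of 19.3 in congenic and 16.5 in S pools and overlap. Congenic pool 3 was lowest in Cldn4 and in this sum, and congenic pool 2, highest in Cldn4, had a sum below all S pools. The part of urothelium in the Cldn4 values was not tested.

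The remaining genes of the tight junction did not pass the test either. The lists held 60 genes, of which 47 were on the array under 1 symbol and 40 were bright enough to be tested, and 0 of the 40 passed limma's adjusted test. The unadjusted p was under 0.05 for 2 of 40, both higher in congenic pools, where 6.62% of all 10658 tested genes were. Medians of log2 fold changes were -0.0098 for 3 other claudins, -0.015 for 7 other membrane proteins, -0.0053 for 18 scaffold and polarity proteins and -6.2e-05 for 12 claudin regulators, and -0.0068 for all tested genes.

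Among scaffold and polarity genes, 8 had higher and 10 lower congenic means, and for 5 of 18 the groups did not overlap, where 12.7% of all tested genes did not. Cgnl1, the gene of the junction plaque protein paracingulin, measured 3109, 3248 and 3172 in congenic pools and 2818, 2925 and 2902 in S pools. All congenic pools were above all S pools, with a log2 fold change of 0.14 (SE 0.045, limma unadjusted p = 0.0113, adjusted p = 0.721). Sympk, named for the junction plaque and known mainly for mRNA 3' end processing, had a log2 fold change of 0.25. Tjp1, the gene of the scaffold ZO-1 that anchors claudins and occludin to actin, measured 679 to 731 in congenic and 696 to 729 in S pools, a log2 fold change of -0.00092.

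Of the regulators, Stx8, a syntaxin that in cell lines takes part in the traffic of Cldn16 to the membrane, measured 169.8, 187 and 189 in congenic pools and 129.7, 148 and 171 in S pools. Only S pool 3 reached the congenic range, and the log2 fold change was 0.26 (SE 0.10, limma unadjusted p = 0.0282, adjusted p = 0.750). Lnx1, a ubiquitin ligase that in cell lines takes claudins off the junction, had a log2 fold change of 0.24. The calcium-sensing receptor gene Casr, which in the thick ascending limb restrains calcium reabsorption by way of claudins, was at -0.16. Casr was also 1 of the 7 thick ascending limb markers used above. Of the other membrane proteins, the tricellular junction genes Ildr1 and Lsr had log2 fold changes of -0.13 and 0.13. Of the other claudins, Cldn11 had 0.17 and the endothelial Cldn5 -0.12, whereas Cldn6, Cldn14, Cldn18 and Cldn22 lay below the filter.

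**Figure D4:**
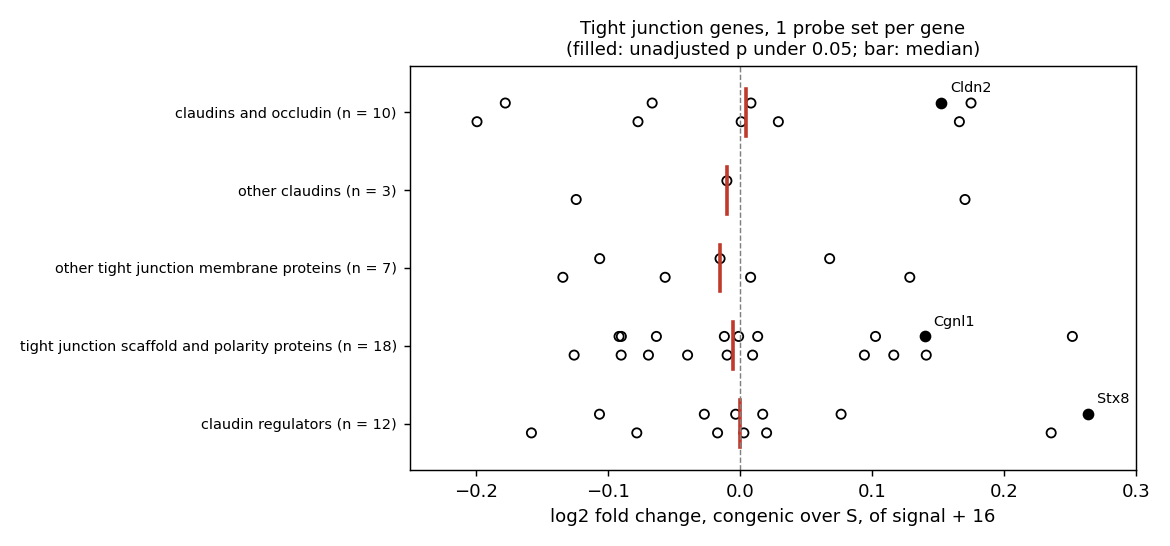
Log2 fold change of signal + 16, congenic over S, for 1 probe set per gene in the 10 claudin and occludin genes and 4 lists of other tight junction genes. Filled points have an unadjusted limma p under 0.05 (Cldn2, Cgnl1 and Stx8) and red bars are medians, all within 0.02 of 0.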

How the data were processed

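Kidney RNA of 3 congenic and 3 S pools was hybridised to Affymetrix rat expression arrays. The authors deposited linear intensities: MAS5 signals, per the submitters' processing notes, with 1 value for each probe set. The MAS5 target and detection calls are not given in the sources used here. Scaling of all arrays to 1 level hides a shift common to most transcripts. Genes were named from the platform annotation, with symbols brought up to date in RefSeq (GRCr8) by gene ID. The 57 control probe sets and the 12417 whose mean over all 6 arrays lay under the 40th percentile (signal 25.6) were left out. The other 18625 were fitted on log2(signal + 16) with limma 3.58.1 in R 4.3.3 (lmFit, eBayes with an intensity trend). Tests were 2-sided, with Benjamini-Hochberg adjustment over all 18625. The fit was also run on simulated data in which 200 probe sets were altered. It recovered 0% of them where the simulated fold was 1.25, 48% where it was 1.5 and 89% where it was 2. False calls numbered 0, 4 and 7 in the same order. For lists, each gene was represented by its brightest probe set. The number of arrays limits precision: the median SE of a log2 fold change was 0.105.

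All probe sets of the members are given. Of the tight junction lists, the 2 genes with the smallest p were named, and Tjp1 and Casr were added for their roles after their values were seen. Members, lists and tests were chosen with earlier results of these data known. Alternatives were other pseudocounts, filters and scalings, eBayes without the trend, the replicate number as a block, each pool left out, and congenic pool 2 alone. Same-numbered pools did not deviate together (correlations 0.014 to 0.037), so the numbers were not taken as pairs.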

Additional observations from a re-analysis of the deposited data

How the results depend on the processing

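Under every alternative fitted, 0 claudin or occludin probe sets passed limma's adjusted test (smallest adjusted p 0.538, for the second Ocln probe set without S pool 3). The count at an unadjusted p under 0.05 was 1 with all pools, and 0 with eBayes without the trend, with congenic pool 2 alone and, among the left-out pools, without congenic pool 3 (range 0 to 1; without congenic pool 2 and without S pool 3 the 1 was Cldn4 and the second Ocln probe set, not Cldn2). Over the whole array, 0 probe sets were called with all pools and 0 to 1 with a pool left out. The median log2 fold change of the members, 0.019, ranged from 0.0037 to 0.091 with a pool left out and was 0.088 with congenic pool 2 alone.

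Of 185 member values under the alternatives, 168 kept their sign and 17 did not; the cause was not tested. Cldn10 was at -0.0048 with quantile normalization, -0.0027 relative to thick ascending limb markers and -0.033 to 0.070 with a pool left out. Cldn7 was at -0.0013 with median centring, -0.11 relative to principal cell markers and -0.11 to 0.13 with a pool left out. Cldn8 was at -0.084 relative to principal cell markers, -0.00088 with congenic pool 2 alone and -0.048 to 0.086 with a pool left out. Cldn4 was at 0.065 with congenic pool 2 alone. Cldn3 ranged from -0.15 to 0.038 and the second Ocln probe set from -0.11 to 0.28 with a pool left out. Cldn2 stayed positive (0.12 to 0.20). With the replicate number as a block, 0 members passed, and Cldn2 kept its log2 fold change of 0.15 with an unadjusted p of 0.0342; the block changed no call. Groups of 3 pools were not tested for outliers.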
